A study of Mus musculus with 12 samples.

Results

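The genes of iron and heme handling described here were followed in mouse primary acute myeloid leukaemia cells: the transferrin receptor Tfrc, the metal transporters Slc11a2 and Slc11a1, the ferritin light chain Ftl1, the iron exporter Slc40a1, the heme-degrading enzyme Hmox1, and the iron sensors Aco1 and Ireb2. These 8 genes were taken by symbol, with earlier results of these data known, and all 8 passed the filter on low values. They are 8 of the 23234 genes listed and of the 10305 genes tested. The ferritin heavy chain Fth1 was left out because it is listed at 0 in all 3 RAD001 libraries.

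The leukaemia cells carried NRASG12V and the Mll-AF9 fusion on an (FVB/n X C57/BL/6J) F1 background. Total RNA was sequenced after 24 h with 20 µM PD325901, an inhibitor of the kinases MEK1 and MEK2, with 26 µM RAD001 (everolimus), an inhibitor of mTOR complex 1, with 20 µM GDC0941, an inhibitor of class I PI3 kinases, or with the vehicle DMSO, 3 libraries in each of the 4 groups. All cells, controls included, carried both oncogenes and grew in RPMI with serum and GM-CSF. The sources used here do not state the promoter of the NRASG12V transgene, the number of animals or whether a replicate number stands for a separate culture, so p-values measure only the spread between these libraries, which may be technical.

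Cells take up transferrin-bound iron through the transferrin receptor, carry it out of the endosome with a divalent metal transporter, keep the surplus in ferritin and let it out through ferroportin, the product of Slc40a1. The iron regulatory proteins, made from Aco1 and Ireb2, bind hairpins called iron-responsive elements when iron is low; binding in a 5′ UTR blocks translation and binding in a 3′ UTR protects the mRNA from decay. In macrophages heme oxygenase 1, made from Hmox1, frees iron from heme, and ferroportin returns that iron to the blood.

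Values are FPKM (fragments scaled to transcript length and to the size of the library), summing to 462335 to 587581 per library. No read counts were used, so absolute depth is unknown, while the steps of the low values put each library at 0.841 to 1.201 times the depth of DMSO replicate 1. The replicate 1 library stood apart in every group: its Spearman correlations across genes with the other replicates were 0.966 to 0.985, against 0.987 to 0.996 between replicates 2 and 3. Because several members follow this split, every replicate is printed, and results that change without the 4 replicate 1 libraries are given with and without them. Changes are on the log2(FPKM + 1) scale ± SE, which understates the change of low genes, and p was adjusted by the Benjamini-Hochberg method over all 10305 genes within a comparison by limma. A gene is called where the adjusted p is under 0.05. Of the myeloid identity markers, Ptprc was at 91.3 to 136 FPKM and Sfpi1 (PU.1) at 283 to 393 FPKM in all libraries, while Lyz2 was listed at 0 throughout. Others varied by group: Itgam was at 226 to 230.0 FPKM with PD325901, 789 to 832 FPKM with RAD001 and 476 to 595 FPKM with GDC0941, against 331 to 343 FPKM with DMSO. Mpo was at 17.4 to 23.4 FPKM with PD325901, 1.03 to 4.65 FPKM with RAD001 and 3.23 to 4.53 FPKM with GDC0941, against 22.2 to 23.8 FPKM with DMSO. Cebpa and Csf3r were higher in all PD325901 libraries, at 115 to 151 and 98.4 to 111 FPKM, than in all DMSO libraries, at 30.9 to 46.2 and 29.7 to 34.7 FPKM. They were at 53.1 to 66.7 and 35.2 to 50.4 FPKM with GDC0941, and at 32.7 to 48.7 and 38.1 to 44.0 FPKM with RAD001. The part of these differences in the results was not tested. The 14 erythroid markers in the table summed to only 1.94 to 7.93 FPKM per library. In bulk RNA, fewer cells of a type and less RNA per cell cannot be told apart.

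The transferrin receptor mRNA was lower with RAD001 and GDC0941. Tfrc measured 12.1, 8.46 and 8.16 FPKM in PD325901 replicates 1, 2 and 3, 10.97, 6.07 and 6.50 FPKM in the RAD001 replicates, and 8.68, 5.41 and 5.18 FPKM in the GDC0941 replicates, against 13.7, 14.6 and 14.0 FPKM in the DMSO replicates. All 9 inhibitor libraries lay below all DMSO libraries, and within each inhibitor group replicate 1 was the highest. Tfrc fell with GDC0941 by 1.06 ± 0.22 on the log2 scale (adjusted p = 0.00601, limma) and with RAD001 by 0.81 ± 0.22 (adjusted p = 0.0170). With PD325901 its log2 change was -0.53 ± 0.22 and did not pass (adjusted p = 0.0688); with the replicate number as a block it passed at the same size (adjusted p = 0.0118), and without the replicate 1 libraries it was -0.72 (adjusted p = 8.94e-05). In the order of mean levels, GDC0941 (6.42 FPKM), RAD001 (7.85 FPKM), PD325901 (9.56 FPKM) and DMSO (14.1 FPKM), neighbours among the inhibitors overlapped. The RAD001 call ended without RAD001 replicate 2 or 3 or DMSO replicate 2, at log2 changes of -0.67, -0.71 and -0.79 (adjusted p = 0.0720, 0.0655 and 0.0543).

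**Figure D1:**
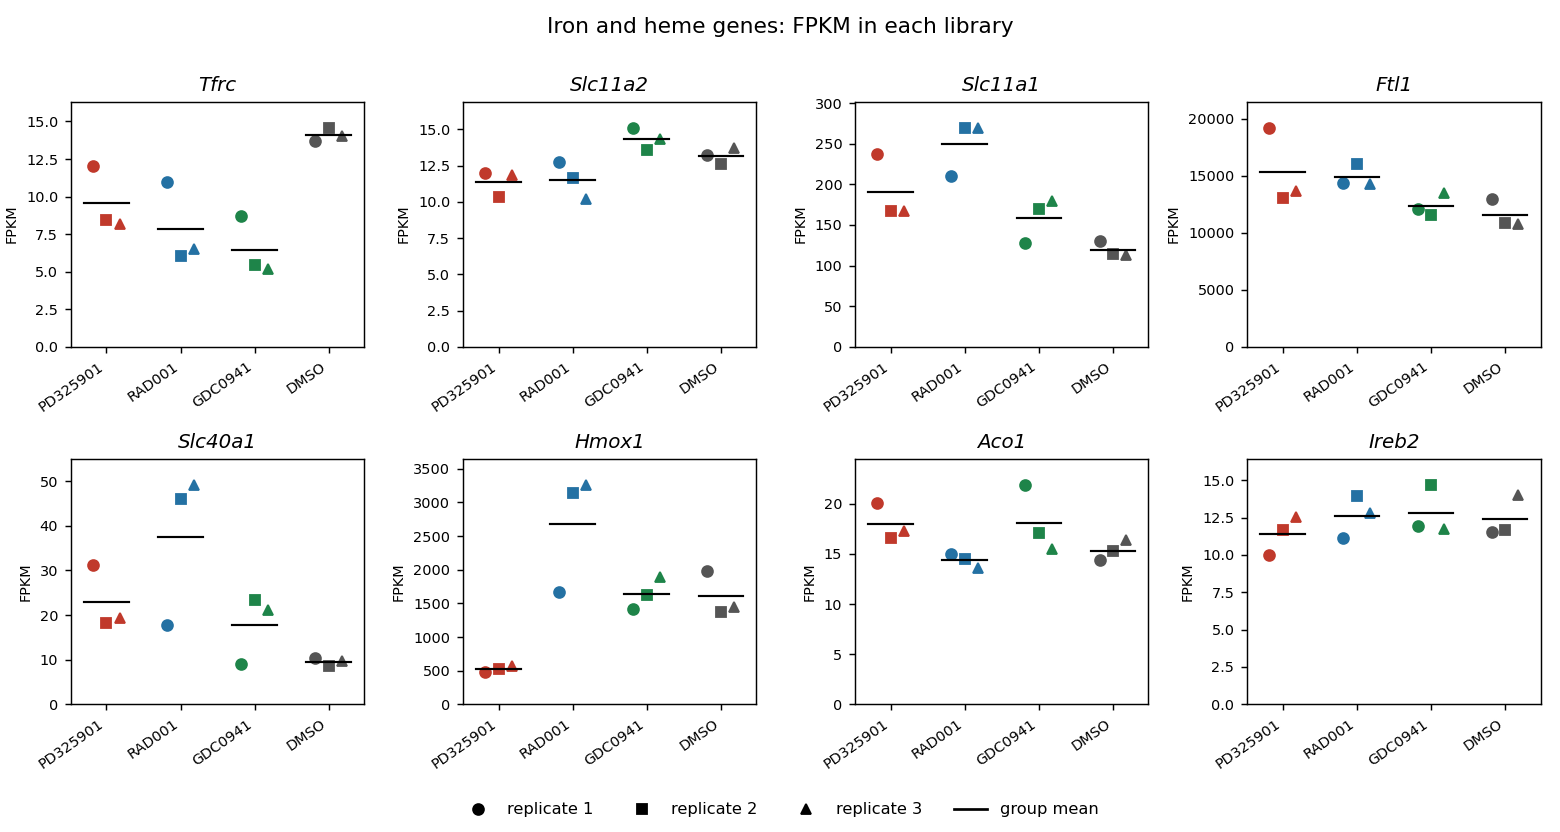
FPKM of the 8 iron and heme genes in each library (vertical axes from 0, a panel per gene), with the PD325901, RAD001, GDC0941 and DMSO groups along the horizontal axis, a symbol per replicate and a line at the group mean. All inhibitor libraries lie below DMSO for Tfrc, Hmox1 is low in all 3 PD325901 libraries, and in Slc40a1 the replicate 1 library of each inhibitor stands away from replicates 2 and 3.

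The Tfrc transcript carries several iron-responsive elements, and they are shown because this element links it to Ftl1 and Slc40a1. The pattern searched was the loop CAGTGN with an unpaired C lying 6 bases before it, the 5 bases between that C and the loop pairing with the 5 bases after the loop, G with T allowed. The search covered the transcript strand of GENCODE M21 (GRCm38, not the mm9 build of the files) and no overlapping motif was searched. It was found in the UTRs of 3 of the 8 members and in those of 160 of 21842 protein-coding genes (0.733%). Capitals mark the loop, and 6 more bases are printed on each side. The 4 sites in the Tfrc 3′ UTR lie on the plus strand at chr16:32631219-32631247, chr16:32631598-32631626, chr16:32631663-32631691 and chr16:32631710-32631738, the Ftl1 5′ UTR site on the minus strand at chr7:45459779-45459807, and the Slc40a1 5′ UTR site on the minus strand at chr1:45925465-45925493.
Tfrc 3′ UTR site 1: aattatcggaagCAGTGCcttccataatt
Tfrc 3′ UTR site 2: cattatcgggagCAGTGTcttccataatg
Tfrc 3′ UTR site 3: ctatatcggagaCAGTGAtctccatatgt
Tfrc 3′ UTR site 4: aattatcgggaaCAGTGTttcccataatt
Ftl1 5′ UTR: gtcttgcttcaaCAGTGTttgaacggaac
Slc40a1 5′ UTR: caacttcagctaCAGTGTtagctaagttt
A match is a description of these letters only. The pattern found no site in the UTRs of the other 5 members. It allows no mismatch or further bulge in the 5 pairs next to the loop, so elements that differ there would be missed. The absence of a match therefore says nothing about binding to these members. The values here are mRNA levels, and translation of Ftl1 or Slc40a1 was not measured.

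Slc11a2 encodes DMT1, which moves iron out of the endosome after transferrin uptake. It was at 11.98, 10.3 and 11.9 FPKM with PD325901, 12.7, 11.7 and 10.2 FPKM with RAD001 and 15.1, 13.6 and 14.4 FPKM with GDC0941, against 13.2, 12.6 and 13.7 FPKM with DMSO. Its 12 values span only 1.48-fold. No comparison with DMSO passed: the log2 changes were -0.20 ± 0.09 (adjusted p = 0.103), -0.18 ± 0.09 (adjusted p = 0.153) and 0.11 ± 0.09 (adjusted p = 0.407) for PD325901, RAD001 and GDC0941. Between inhibitors it was lower with PD325901 than with GDC0941 (-0.31 ± 0.09, adjusted p = 0.0153, limma), a call that ended without PD325901 replicate 2 (-0.25, adjusted p = 0.0689). It was also lower with RAD001 than with GDC0941 (-0.30 ± 0.09, adjusted p = 0.0475), but that call held under only 8 of 22 alternatives, with adjusted p = 0.0202 to 0.178 over them, and was lost on leaving out any 1 library other than RAD001 replicate 1. The order of means was PD325901 (11.4 FPKM), RAD001 (11.5 FPKM), DMSO (13.2 FPKM) and GDC0941 (14.3 FPKM); PD325901 overlapped RAD001, RAD001 overlapped DMSO, and DMSO overlapped GDC0941.

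Slc11a1 encodes NRAMP1, the related transporter of the phagosome membrane in macrophages and neutrophils, which pumps divalent metals away from ingested microbes. It measured 237, 167 and 167 FPKM with PD325901, 210, 270 and 269 FPKM with RAD001 and 128, 170 and 179 FPKM with GDC0941, against 130, 114 and 113 FPKM with DMSO. Every PD325901 and RAD001 library lay above every DMSO library, and GDC0941 replicate 1 fell among the DMSO libraries. Slc11a1 rose with RAD001 by 1.06 ± 0.17 on the log2 scale (adjusted p = 0.000906, limma) and with PD325901 by 0.66 ± 0.17 (adjusted p = 0.00720), and both calls held under all 22 alternatives tried. With GDC0941 the change was 0.40 ± 0.17 (adjusted p = 0.1); without the replicate 1 libraries it was 0.62 (adjusted p = 4.42e-05), and without GDC0941 replicate 1 alone 0.55 (adjusted p = 0.0268). RAD001 was above GDC0941 by 0.65 ± 0.17 (adjusted p = 0.0214), a call that ended without RAD001 replicate 2 or 3 or GDC0941 replicate 1 (0.59, 0.59 and 0.50, adjusted p = 0.0789, 0.0811 and 0.0593). The order of means was DMSO (119 FPKM), GDC0941 (159 FPKM), PD325901 (190 FPKM) and RAD001 (250 FPKM), and each group overlapped its neighbour. PD325901 against RAD001 was at -0.68 without the replicate 1 libraries (adjusted p = 1.28e-05), and PD325901 against GDC0941 was then at -0.06, against 0.25 with all libraries, and passed in neither case.

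In FPKM, which are per length, Slc11a1 stood above Slc11a2 in every library. The ratio was 14.1 to 19.8 with PD325901, 16.5 to 26.4 with RAD001 and 8.47 to 12.5 with GDC0941, against 8.21 to 9.81 with DMSO. It was above all DMSO libraries in all 3 PD325901 and all 3 RAD001 libraries, and in GDC0941 replicate 1 it lay within the DMSO range.

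Storage was read from Ftl1, the light chain that forms the ferritin shell with the heavy chain. It was among the 3 highest genes of all 12 libraries. Its levels were 19191, 13066 and 13673.5 FPKM with PD325901, 14383, 16025 and 14254 FPKM with RAD001 and 12099, 11508.5 and 13454 FPKM with GDC0941, against 12980, 10869.9 and 10721 FPKM with DMSO. The PD325901 and RAD001 libraries lay above all DMSO libraries, while GDC0941 overlapped DMSO. The log2 changes were 0.39 ± 0.16 with PD325901 (adjusted p = 0.0641, limma), 0.37 ± 0.16 with RAD001 (adjusted p = 0.0993) and 0.10 ± 0.16 with GDC0941 (adjusted p = 0.684), and none passed. Without the replicate 1 libraries the first passed at 0.31 (adjusted p = 0.0453) and the second at 0.49 (adjusted p = 0.00737). After quantile normalization the PD325901 change was -0.18 (adjusted p = 0.474) and the GDC0941 change -0.29 (adjusted p = 0.289), so no direction is given for either. Ftl1 has near-identical processed copies in the mouse genome; the sources used here do not say how shared reads were assigned, so its level is uncertain. Fth1, left out here, was at 12011 to 17047 FPKM with PD325901, 20293 to 23355.5 FPKM with GDC0941 and 15048 to 20210 FPKM with DMSO. It is listed at 0 with RAD001, and the reason was not tested. Ranks of Ftl1 were taken with that 0 in place.

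The ferroportin mRNA was higher with PD325901 and RAD001. Slc40a1 measured 31.3, 18.3 and 19.4 FPKM with PD325901, 17.7, 46.0 and 49.0 FPKM with RAD001 and 8.94, 23.3 and 21.0 FPKM with GDC0941, against 10.3, 8.59 and 9.79 FPKM with DMSO. All PD325901 and RAD001 libraries lay above all DMSO libraries; GDC0941 replicates 2 and 3 did too, and GDC0941 replicate 1 lay within the DMSO range. Slc40a1 rose with RAD001 by 1.74 ± 0.40 on the log2 scale, 3.93-fold in mean FPKM (adjusted p = 0.00718, limma), and this call held under all 22 alternatives. With PD325901 it rose by 1.14 ± 0.40, 2.40-fold (adjusted p = 0.0353). That call ended without PD325901 replicate 1 (0.91, adjusted p = 0.124) or 3 (1.24, adjusted p = 0.0565), without DMSO replicate 1, 2 or 3 (1.196, 1.07 and 1.16, adjusted p = 0.0632, 0.0915 and 0.0736) and with no filter (adjusted p = 0.0632).

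With GDC0941 the Slc40a1 change was 0.73 ± 0.40 and did not pass (adjusted p = 0.214). Without the replicate 1 libraries the changes were 0.96 with PD325901 (adjusted p = 2.56e-05), 2.25 with RAD001 (adjusted p = 2.52e-07) and 1.19 with GDC0941 (adjusted p = 9.14e-06), so all 3 passed there. Between inhibitors no difference passed with all libraries: -0.60 ± 0.40 for PD325901 against RAD001 (adjusted p = 0.235), 0.42 ± 0.40 for PD325901 against GDC0941 (adjusted p = 0.411) and 1.01 ± 0.40 for RAD001 against GDC0941 (adjusted p = 0.101). Without the replicate 1 libraries RAD001 was above both, with -1.29 for PD325901 against RAD001 (adjusted p = 3.03e-06) and 1.07 for RAD001 against GDC0941 (adjusted p = 2.91e-05), while PD325901 against GDC0941 changed sign to -0.23 (adjusted p = 0.0519). With all libraries the order of means was DMSO (9.57 FPKM), GDC0941 (17.8 FPKM), PD325901 (23.0 FPKM) and RAD001 (37.6 FPKM), and each group overlapped its neighbour.

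The ratio of Slc40a1 to Tfrc, the exporter over the transferrin receptor, was 2.16 to 2.59 with PD325901, 1.61 to 7.58 with RAD001 and 1.03 to 4.31 with GDC0941, against 0.589 to 0.756 with DMSO. It was above all DMSO libraries in all 9 inhibitor libraries. The lowest value of RAD001 and that of GDC0941 were both in replicate 1.

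Hmox1 was lower with PD325901 than in each of the other groups. Hmox1 measured 484, 529 and 572 FPKM with PD325901, 1669, 3137 and 3253 FPKM with RAD001 and 1415, 1622 and 1899 FPKM with GDC0941, against 1985, 1374 and 1450.06 FPKM with DMSO. The 3 PD325901 libraries lay below all 9 others, and RAD001 replicates 2 and 3 lay above all others, whereas RAD001 replicate 1 fell within the DMSO range. With PD325901 Hmox1 fell by 1.58 ± 0.24 on the log2 scale, to 0.329 of the DMSO mean (adjusted p = 0.000329, limma), and this call held under all 22 alternatives. It was also lower with PD325901 than with RAD001 (-2.29 ± 0.24, adjusted p = 1.63e-05) and than with GDC0941 (-1.63 ± 0.24, adjusted p = 0.000178), again under all 22 alternatives. In DMSO libraries Hmox1 ranked 17 to 33 among all genes by FPKM, and in PD325901 libraries 127 to 154.

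With RAD001 Hmox1 rose by 0.70 ± 0.24 (adjusted p = 0.0432, limma), which held under 11 of 22 alternatives. Without the replicate 1 libraries the change was 1.18 (adjusted p = 1.09e-05). The call ended without RAD001 replicate 2 or 3 (0.56 and 0.53, adjusted p = 0.153 and 0.154), without DMSO replicate 2 or 3 (0.60 and 0.64, adjusted p = 0.142 and 0.126), with only the 2 groups compared (adjusted p = 0.106), with no filter (adjusted p = 0.0836) and after quantile normalization (0.23, adjusted p = 0.456). At an unchanged size it also ended without any 1 of the PD325901 libraries or GDC0941 replicate 2 (adjusted p = 0.0534 to 0.0602). With GDC0941 the change was 0.05 ± 0.24 (adjusted p = 0.912), or 0.31 without the replicate 1 libraries (adjusted p = 0.0230). The order of means was PD325901 (528 FPKM), DMSO (1603 FPKM), GDC0941 (1645 FPKM) and RAD001 (2686 FPKM), and DMSO overlapped GDC0941, which overlapped RAD001.

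Markers of iron-recycling macrophages moved with the groups as well. The 12 markers summed to 404 to 589 FPKM with PD325901, 218 to 250 FPKM with RAD001 and 113 to 160 FPKM with GDC0941, against 318 to 395 FPKM with DMSO, and 7 of the 12 were tested. Among them, Mertk was at 16.1 to 27.8 FPKM with PD325901, 0.892 to 2.91 FPKM with RAD001 and 3.18 to 4.72 FPKM with GDC0941, against 5.08 to 5.32 FPKM with DMSO. C1qb was at 128 to 222 FPKM with PD325901, 13.6 to 45.0 FPKM with RAD001 and 11.4 to 19.6 FPKM with GDC0941, against 76.7 to 124 FPKM with DMSO. Others moved differently: Mrc1 was at 2.80 to 4.92 FPKM with PD325901, 0.986 to 1.49 FPKM with RAD001 and 9.62 to 13.4 FPKM with GDC0941, against 9.11 to 11.6 FPKM with DMSO. Emr1, the most abundant of the list, was at 135 to 149 FPKM with PD325901, 127 to 191 FPKM with RAD001 and 54.5 to 117 FPKM with GDC0941, against 107 to 143 FPKM with DMSO, and Axl was at 7.11 to 10.8 FPKM in all libraries. None of the 12 was at 0 in all libraries, though Cd163 and Vcam1, which mark red pulp macrophages, averaged under 1 FPKM in each group. Spic, the transcription factor of red pulp macrophages, was at 1.11 to 2.57 FPKM with PD325901, 0.252 to 0.709 FPKM with RAD001 and 0.164 to 0.929 FPKM with GDC0941, against 0.229 to 0.645 FPKM with DMSO. The part of such cells in the Slc40a1 and Hmox1 values was not tested.

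The iron sensors passed in none of the comparisons with DMSO. Aco1, which encodes IRP1 and serves as a cytosolic aconitase when it holds an iron-sulphur cluster, was at 20.1, 16.6 and 17.3 FPKM with PD325901, 15.0, 14.5 and 13.6 FPKM with RAD001 and 21.8, 17.04 and 15.5 FPKM with GDC0941, against 14.4, 15.2 and 16.3 FPKM with DMSO. Its log2 changes from DMSO were 0.22 ± 0.12 (adjusted p = 0.155), -0.09 ± 0.12 (adjusted p = 0.593) and 0.22 ± 0.12 (adjusted p = 0.212), none of which passed by limma. That of PD325901 passed under 2 of 22 alternatives, quantile normalization (0.28, adjusted p = 0.0379) and median-ratio scaling. The PD325901 libraries lay above all RAD001 libraries (0.30 ± 0.12, adjusted p = 0.0504, or 0.0383 with the replicate number as a block). This difference passed by limma under 10 of 22 alternatives, with adjusted p = 0.00213 to 0.172 over them. The order of means was RAD001 (14.4 FPKM), DMSO (15.3 FPKM), PD325901 (17.99 FPKM) and GDC0941 (18.1 FPKM); RAD001 overlapped DMSO and PD325901 overlapped GDC0941.

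Ireb2 encodes IRP2, which is broken down when iron is plentiful. It was at 10.0, 11.7 and 12.5 FPKM with PD325901, 11.1, 13.9 and 12.8 FPKM with RAD001 and 11.9, 14.6 and 11.8 FPKM with GDC0941, against 11.5, 11.7 and 14.0 FPKM with DMSO, so all 4 groups overlapped. The log2 changes from DMSO were -0.11 ± 0.12 with PD325901 (95% interval -0.38 to 0.16, adjusted p = 0.483), 0.02 ± 0.12 with RAD001 (-0.24 to 0.29, adjusted p = 0.893) and 0.04 ± 0.12 with GDC0941 (-0.23 to 0.31, adjusted p = 0.850). None passed under any of the 22 alternatives by limma. Its means, 11.4, 12.6 and 12.8 FPKM with PD325901, RAD001 and GDC0941 and 12.4 FPKM with DMSO, did not differ beyond their spread. Per length, Aco1 was above Ireb2 in all 12 libraries, by 1.04 to 2.00 times.

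**Figure D2:**
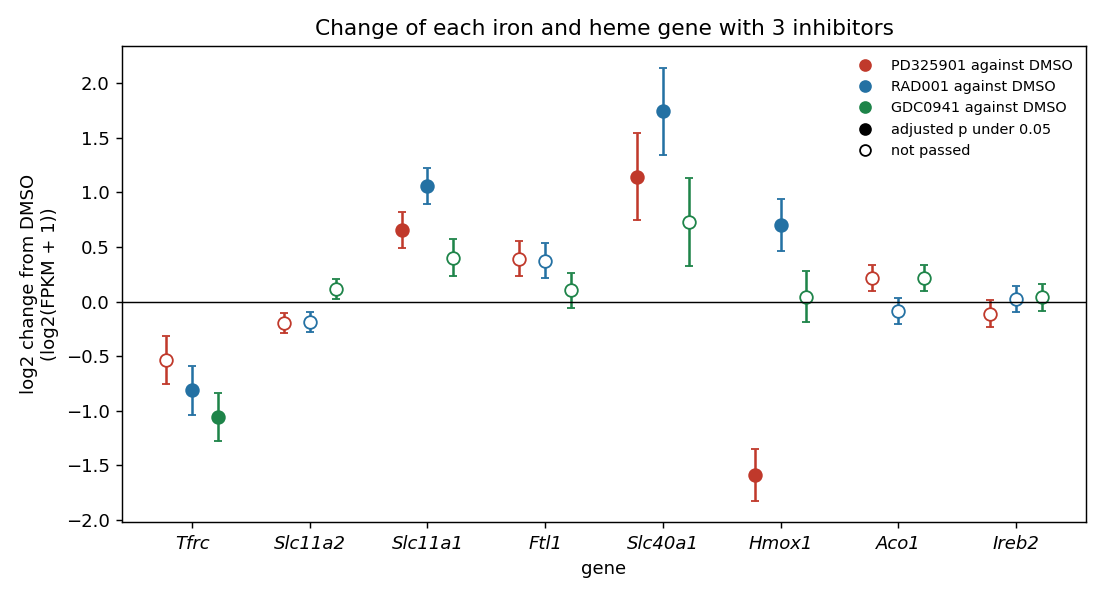
Log2 change from DMSO (vertical axis, log2(FPKM + 1) scale) of each of the 8 genes with PD325901, RAD001 and GDC0941, points ± SE from limma with 3 libraries per group, filled where the adjusted p is under 0.05. Tfrc lies below 0 with all 3 inhibitors, Slc40a1 and Slc11a1 above 0, and Hmox1 runs from -1.58 with PD325901 to 0.70 with RAD001.

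Counted over the members, 3 of 8 were called with PD325901 against DMSO, Slc11a1 and Slc40a1 higher and Hmox1 lower, where 46.6% of all genes tested were called, 18.4% higher and 28.2% lower. With RAD001 4 of 8 were called, Slc11a1, Slc40a1 and Hmox1 higher and Tfrc lower, where 31.3% of all genes were called, 15.4% higher and 15.9% lower. With GDC0941 only Tfrc, 1 of 8, was called lower, where 24.3% of all genes were called, 11.6% higher and 12.7% lower. The median log2 changes of the members were 0.05, 0.20 and 0.11 with PD325901, RAD001 and GDC0941, against -0.06, 0.00 and 0.02 over all genes tested. The 3 comparisons share the DMSO libraries. Without the replicate 1 libraries 5, 5 and 4 members were called, where 55.2%, 46.9% and 41.8% of all genes were.

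Between inhibitors, 1 of 8 members differed between PD325901 and RAD001 (Hmox1, lower), where 50.2% of all genes did, 20.8% higher and 29.4% lower. Of the 8 members 2 differed between PD325901 and GDC0941 (Hmox1 and Slc11a2, lower), where 51.5% of all genes did, 20.9% higher and 30.7% lower. Another 2 differed between RAD001 and GDC0941 (Slc11a1 higher, Slc11a2 lower), where 17.4% of all genes did, 9.35% higher and 8.09% lower. In these comparisons 5, 3 and 4 members differed without the replicate 1 libraries, where 57.6%, 59.2% and 33.3% of all genes did. Without RAD001 replicate 1 alone, 3 differed between PD325901 and RAD001 and 4 between RAD001 and GDC0941, where 46.8% and 19.2% of all genes did. With all libraries Tfrc did not pass between any pair of inhibitors: the differences were 0.28 ± 0.22 for PD325901 against RAD001 (95% interval -0.21 to 0.77, adjusted p = 0.321), 0.52 ± 0.22 for PD325901 against GDC0941 (0.03 to 1.01, adjusted p = 0.0712) and 0.24 ± 0.22 for RAD001 against GDC0941 (-0.25 to 0.73, adjusted p = 0.476). Leaving out the replicate 1 libraries, it was higher with PD325901 than with RAD001 (0.35, adjusted p = 0.00492) and than with GDC0941 (0.56, adjusted p = 0.000303), calls made under 2 and 7 of the 22 alternatives.

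The other genes of the pathway were read in 4 lists of 77 genes, of which 61 were tested. With PD325901 12 rose and 17 fell (13 and 12 after median-ratio scaling), with RAD001 12 rose and 13 fell (11 and 18 after quantile normalization), and with GDC0941 5 rose and 7 fell, where 46.6%, 31.3% and 24.3% of all genes tested were called. After these rescalings 47.2% of all genes were called with PD325901 and 34.7% with RAD001. With GDC0941 11 rose and 15 fell without its replicate 1 (30.4% of all genes called), and 12 rose and 19 fell without the replicate 1 libraries (41.8%). With RAD001 16 rose and 23 fell without the replicate 1 libraries (46.9%). The list medians over the 61 genes were -0.15, -0.06 and -0.04 on the log2 scale, against -0.06, 0.00 and 0.02 over all genes tested. In each account that follows, genes from the 5 of a list with the smallest adjusted p are named.

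**Figure D3:**
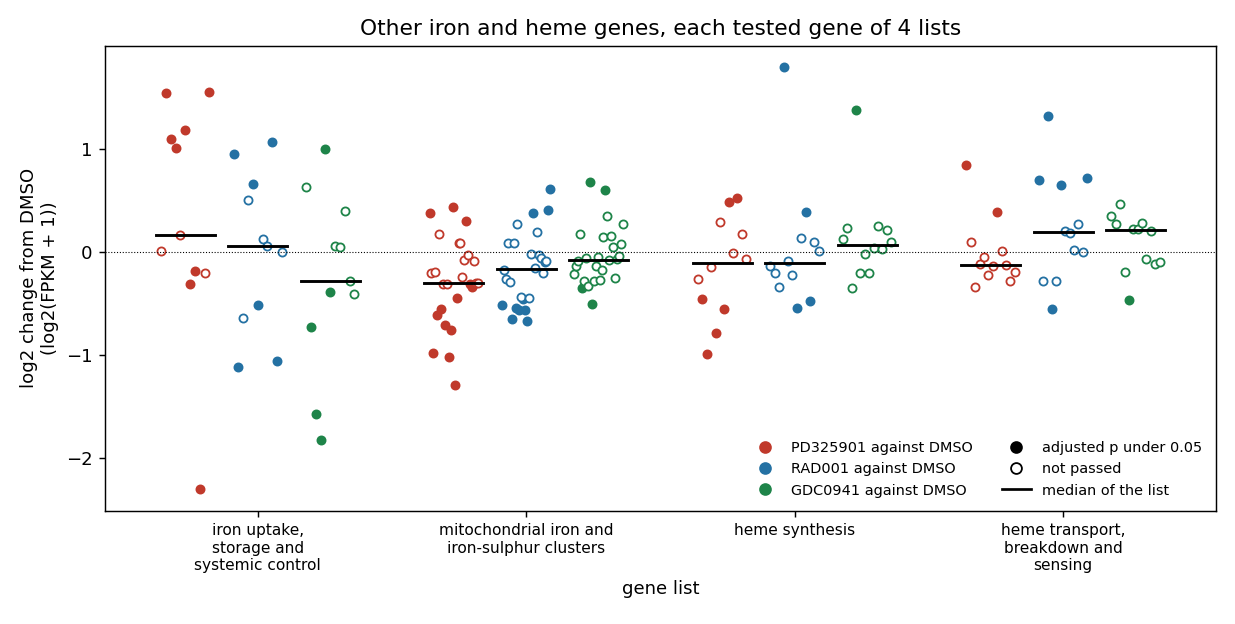
Log2 change from DMSO (vertical axis, log2(FPKM + 1) scale) of each of the 61 tested genes in 4 lists of iron and heme genes (horizontal axis) with PD325901, RAD001 and GDC0941, filled where the limma adjusted p is under 0.05, with a line at each list's median. In the heme synthesis list a single gene, Alas1, lies far above the rest with RAD001 (1.79) and GDC0941 (1.37).

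Of the genes for iron uptake, storage and systemic control 11 of 24 were tested. With PD325901 5 rose and 3 fell, with RAD001 3 rose and 3 fell, and with GDC0941 2 rose and 4 fell, where 46.6%, 31.3% and 24.3% of all genes were called. Slc39a14, the zinc and iron importer ZIP14, measured 0.757, 1.32 and 1.05 FPKM with PD325901, 16.0, 22.4 and 22.02 FPKM with RAD001 and 10.1, 14.8 and 12.1 FPKM with GDC0941, against 9.82, 8.47 and 8.78 FPKM with DMSO. It fell with PD325901 (-2.30 ± 0.16, adjusted p = 2.68e-06, limma) and rose with RAD001 (1.06 ± 0.16, adjusted p = 0.000714), and was at 0.40 ± 0.16 with GDC0941 (adjusted p = 0.0941). Ncoa4, the receptor that takes ferritin to autophagosomes, rose with PD325901 (1.18 ± 0.09, adjusted p = 4.23e-06) and fell with RAD001 (-0.52 ± 0.09, adjusted p = 0.00145) and GDC0941 (-0.39 ± 0.09, adjusted p = 0.00916). Hfe, the haemochromatosis protein that binds the transferrin receptor, averaged 23.0 ± 1.35 FPKM with PD325901, 2.86 ± 0.746 FPKM with RAD001 and 3.99 ± 0.626 FPKM with GDC0941, against 7.31 ± 1.35 FPKM with DMSO (SD, n = 3 each). It rose with PD325901 (adjusted p = 3.05e-05, limma) and fell with RAD001 (adjusted p = 0.000551) and GDC0941 (adjusted p = 0.00757).

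Lcn2, the neutrophil siderophore-binding protein lipocalin 2, rose with PD325901 (1.00 ± 0.20, adjusted p = 0.00168) and fell with GDC0941 (-1.83 ± 0.20, adjusted p = 0.000140). It is also a secondary granule marker, and the other 6 markers of that list in the table summed to 6457 to 8520.43 FPKM with PD325901, 2855 to 4233 FPKM with RAD001 and 776 to 1756 FPKM with GDC0941, against 2260 to 2903 FPKM with DMSO. With RAD001 they moved apart: Mmp8 was at 1525 to 1961 FPKM, against 196 to 312 FPKM with DMSO, and Camp at 238 to 458 FPKM, against 548 to 693 FPKM with DMSO. Their part in the Lcn2 result was not tested. Lrp1, a scavenger receptor that takes up heme bound to hemopexin, rose with RAD001 (0.66 ± 0.16, adjusted p = 0.0110) and GDC0941 (1.00 ± 0.16, adjusted p = 0.00170). Fbxl5, the ubiquitin ligase subunit that marks IRP2 for breakdown, was chosen after its values were seen. It rose with RAD001 (0.95 ± 0.21, adjusted p = 0.00585, limma), to a mean of 75.6 FPKM against 38.7 FPKM with DMSO. With GDC0941 it averaged 63.1 FPKM and overlapped DMSO (0.63 ± 0.21, adjusted p = 0.05 as rounded, counted above as a rise). With PD325901 its change was 0.01 ± 0.21 (adjusted p = 0.973). IRP2 protein was not measured.

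Mitochondrial iron and iron-sulphur cluster genes were all tested, 26 of 26. With PD325901 3 rose and 10 fell (median -0.30), with RAD001 3 rose and 7 fell (median -0.17), and with GDC0941 2 rose and 2 fell (median -0.08). Of all genes tested, 18.4% rose and 28.2% fell with PD325901, 15.4% and 15.9% with RAD001, and 11.6% and 12.7% with GDC0941. Hspa9, the mitochondrial chaperone that helps pass on new clusters, fell with PD325901 (-1.30 ± 0.11, adjusted p = 7.27e-06, limma) and RAD001 (-0.67 ± 0.11, adjusted p = 0.000992). Ciapin1, of the cytosolic cluster pathway, fell with PD325901 (-0.61 ± 0.11, adjusted p = 0.00119) and GDC0941 (-0.36 ± 0.11, adjusted p = 0.0396). The scaffold Iscu rose with RAD001 (0.38 ± 0.09, adjusted p = 0.0105) and with GDC0941 (0.60 ± 0.09, adjusted p = 0.00122).

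The first enzyme of heme synthesis rose with 2 of the 3 inhibitors. Alas1, the housekeeping synthase that starts the pathway, measured 68.8, 50.4 and 51.8 FPKM with PD325901, 244, 226 and 192 FPKM with RAD001 and 132, 174 and 189.7 FPKM with GDC0941, against 85.0, 52.3 and 55.3 FPKM with DMSO. The RAD001 and GDC0941 libraries lay above all DMSO libraries, and those of PD325901 overlapped DMSO. Alas1 rose with RAD001 by 1.79 ± 0.20 (adjusted p = 0.000128, limma) and with GDC0941 by 1.37 ± 0.20 (adjusted p = 0.000813), and was at -0.15 ± 0.20 with PD325901 (adjusted p = 0.565). Of the 12 genes tested, 2 rose and 4 fell with PD325901, 2 rose and 2 fell with RAD001, and only Alas1 rose with GDC0941, with none lower. Of all genes, 46.6%, 31.3% and 24.3% were called in these comparisons. The enzymes Alad (-0.99 ± 0.19, adjusted p = 0.00134) and Cpox (-0.79 ± 0.13, adjusted p = 0.000680) fell with PD325901, and Tmem14c, which helps bring the heme precursor into mitochondria, rose (0.52 ± 0.12, adjusted p = 0.00369). With RAD001 Tmem14c fell (-0.48 ± 0.12, adjusted p = 0.00980).

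Among genes of heme transport, breakdown and sensing, 12 of 14 were tested. With PD325901 2 rose and none fell, with RAD001 4 rose and 1 fell, and with GDC0941 none rose and 1 fell, where 46.6%, 31.3% and 24.3% of all genes were called. Blvrb, a biliverdin reductase that acts after heme oxygenase, measured 156, 129 and 124 FPKM with PD325901, 335, 503 and 468 FPKM with RAD001 and 167, 272 and 292 FPKM with GDC0941, against 176, 171 and 169 FPKM with DMSO. It rose with RAD001 (1.31 ± 0.20, adjusted p = 0.000814, limma) and did not pass with PD325901 (-0.34 ± 0.20, adjusted p = 0.186) or GDC0941 (0.46 ± 0.20, adjusted p = 0.124). Slc48a1, which carries heme out of the phagolysosome, rose with RAD001 (0.71 ± 0.15, adjusted p = 0.00520), as did Mafg, a small MAF protein that partners BACH1 and NRF2 (0.65 ± 0.12, adjusted p = 0.00287). Bach1, the heme-sensing repressor of Hmox1, rose with both PD325901 (0.84 ± 0.18, adjusted p = 0.00246) and RAD001 (0.70 ± 0.18, adjusted p = 0.0112). Hmox1 itself fell with PD325901 and rose with RAD001, the rise being called under 11 of 22 alternatives. A link between Bach1 and Hmox1 levels was not tested. The constitutive heme oxygenase Hmox2 averaged 95.8 ± 10.4 FPKM with PD325901, 70.4 ± 0.885 FPKM with RAD001 and 91.6 ± 16.3 FPKM with GDC0941, against 104 ± 0.773 FPKM with DMSO (SD). Of the comparisons with DMSO, that of RAD001 passed (-0.56 ± 0.12, adjusted p = 0.00469).

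**Figure D4:**
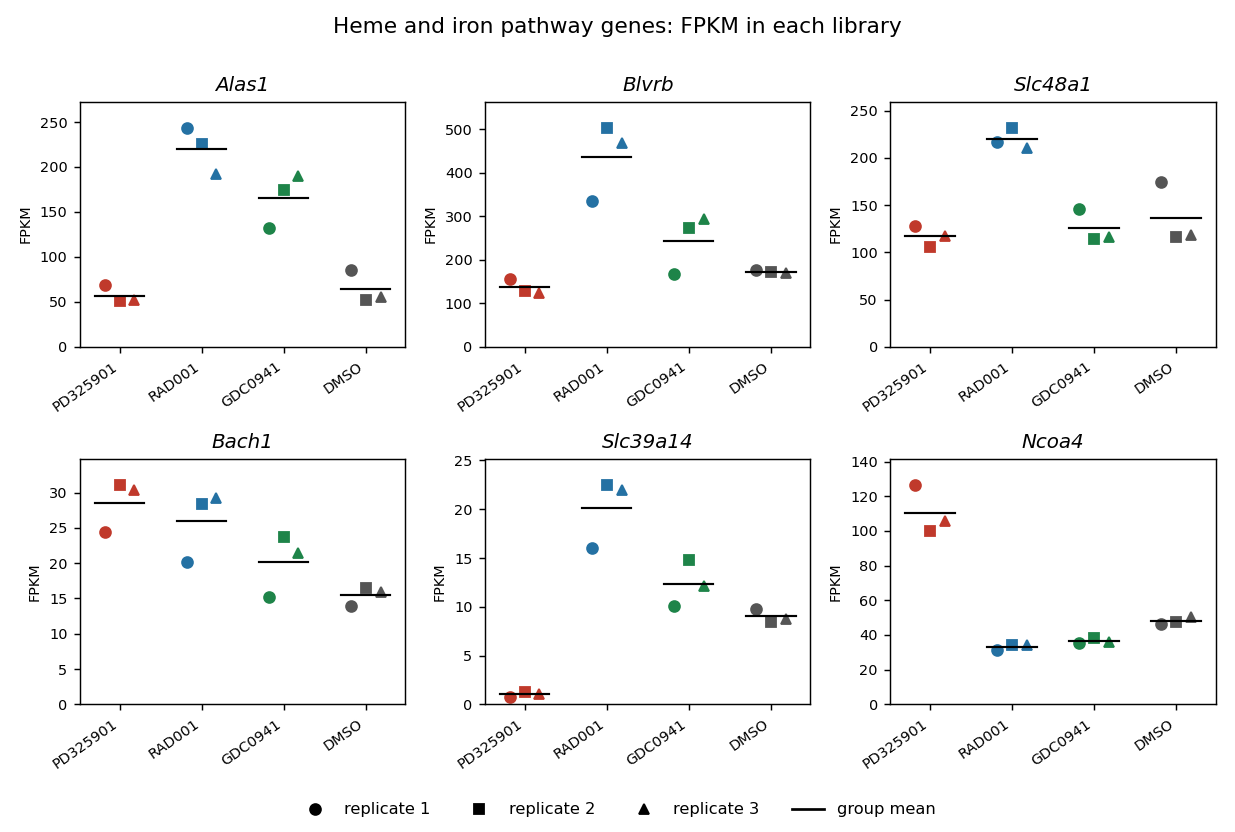
FPKM of 6 other heme and iron genes in each library (vertical axes from 0, a panel per gene), by group along the horizontal axis, with a symbol per replicate and a line at the group mean. Alas1 and Blvrb are highest with RAD001, and Slc39a14 is near 1 FPKM and Ncoa4 near 111 FPKM with PD325901.

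The genes whose values ran closest to the members were found by the root mean square difference in log2(FPKM + 1) over the 12 libraries, each gene set to its own mean, among 7543 tested genes averaging 5 FPKM or more. This is a description of likeness in these libraries. For Tfrc they were Zbed3 (0.17), Parvg (0.17) and Cks2 (0.20), against a spread of Tfrc itself of 0.47. For Slc11a1 they were Csf1r (0.18), Sirpb1b (0.18) and Phf1 (0.19), against a spread of 0.43. Csf1r, the receptor for the macrophage growth factor M-CSF, was at 240.1 to 248 FPKM with PD325901, 227 to 312 FPKM with RAD001 and 164 to 207 FPKM with GDC0941, against 144 to 158 FPKM with DMSO. For Slc40a1 they were Ltb4r1 (0.32), Rara (0.35) and Treml4 (0.36), against a spread of 0.79. Rara, the retinoic acid receptor alpha, was at 30.3 to 35.5 FPKM with PD325901, 37.7 to 55.1 FPKM with RAD001 and 20.2 to 37.0 FPKM with GDC0941, against 13.9 to 17.7 FPKM with DMSO. For Hmox1 they were Fhl3 (0.29), Plekhn1 (0.30) and Rasa2 (0.31), against a spread of 0.88. Rasa2, a RAS GTPase-activating protein, was at 1.06 to 1.396 FPKM with PD325901, 13.5 to 15.3 FPKM with RAD001 and 5.84 to 7.82 FPKM with GDC0941, against 6.18 to 7.21 FPKM with DMSO.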

How the data were processed

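The 12 libraries (total RNA, 4 groups of 3) were deposited by the authors as a table of FPKM per gene symbol, normalized by the authors; TopHat2 2.0.4, Cuffdiff and mm9 are named per the submitters' processing notes, while the sources used here do not state the annotation, the scaling between libraries or the use of strand. The computations used R 4.3.3 and limma 3.58.1. The 10305 of 23234 genes averaging 1 FPKM or more were fitted as log2(FPKM + 1) with 4 group means (8 residual degrees of freedom) and eBayes with a trend; 6 comparisons were tested, two-sided, with Benjamini-Hochberg adjustment. The procedure was tested on simulated data. Precision from counting could not be computed, since no counts are given. The members, lists, naming rule (all members, up to 5 genes per list by smallest adjusted p against DMSO, 3 nearest genes per called member; some genes that it names are not reported here) and tests were chosen with earlier results of these data known. List symbols missing from the table were matched by RefSeq synonyms (GRCm38.p6). Sequences come from GENCODE M21 (GRCm38), matched by symbol. Alternatives were the pseudocount, filter, scaling, library weights, only the 2 groups compared, the replicate block and leaving out libraries.

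Same-numbered libraries deviated together from their group means (all 3 correlations above 0.1) for PD325901 against DMSO (lowest 0.183), RAD001 against DMSO (0.201), PD325901 against RAD001 (0.149) and RAD001 against GDC0941 (0.309), but not for GDC0941 against DMSO (0.0354) or PD325901 against GDC0941 (-0.139). By best match, each of the 3 PD325901 libraries correlated most with the DMSO library of its own number. That held for 2 of 3 libraries for PD325901 against GDC0941 and for RAD001 against GDC0941. It held for only 1 of 3 for RAD001 against DMSO, GDC0941 against DMSO and PD325901 against RAD001. The 2 measures differ, so pairing by number is not settled. The labels do not say what a number stands for, so the block was fitted as an alternative.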

Additional observations from a re-analysis of the deposited data

How the results depend on the processing

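Counts of genes passing limma's threshold were recomputed under 22 alternatives for 15 counts, and 278 of 330 values stayed within 1.5 times the original. For the members, the count with PD325901 against DMSO was 3 and became 5 (4 higher, 1 lower) with median-ratio scaling, 6 with library weights and 5 without the replicate 1 libraries, where 47.2%, 68.6% and 55.2% of all genes were called. For PD325901 against RAD001 it was 1. It became 2 with a pseudocount of 0.1 FPKM, a filter at 5 FPKM, median-ratio scaling, only the 2 groups compared or the replicate block (50.1% to 54.1% of all genes called). It became 3 with quantile normalization (50.6%), and 5 with library weights or without the replicate 1 libraries (71.8% and 57.6%). For RAD001 against GDC0941 it was 2 and became 1 with no filter (9.56% of all genes called). It became 4 with quantile normalization, library weights or without the replicate 1 libraries (20%, 29.6% and 33.3%). It became 0 with only the 2 groups compared (6.8%), where 3 had an unadjusted p under 0.05 by limma. For GDC0941 against DMSO it was 1 and became 3 with library weights and 4 without the replicate 1 libraries, where 37.4% and 41.8% of all genes were called. Leaving out 1 library gave 2 to 4 members with PD325901 against DMSO, 2 to 4 with RAD001 and 1 to 3 with GDC0941, 1 to 3 for PD325901 against RAD001 or GDC0941, and 0 to 4 for RAD001 against GDC0941. The 0 came without RAD001 replicate 2 or 3 or GDC0941 replicate 1, where 3, 2 and 2 had an unadjusted p under 0.05. Of all genes, 39% to 50.5% were then called with PD325901 against DMSO, 21.5% to 35.7% with RAD001 and 15.9% to 30.4% with GDC0941. Between inhibitors the shares were 42.6% to 54.4% for PD325901 against RAD001, 43.8% to 52.7% for PD325901 against GDC0941 and 9.3% to 19.2% for RAD001 against GDC0941.

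For the pathway lists, the count with RAD001 was 25 and became 47 with library weights and 39 without the replicate 1 libraries (67.2% and 46.9% of all genes called). With GDC0941 it was 12 and became 28 and 31 (37.4% and 41.8%). Leaving out 1 library gave 23 to 33 with PD325901, 20 to 30 with RAD001 and 10 to 26 with GDC0941, the 26 without GDC0941 replicate 1. Of all genes, 39% to 50.5%, 21.5% to 35.7% and 15.9% to 30.4% were then called. Over all genes, 3224 called with RAD001 became 6923 with library weights, and 2503 with GDC0941 became 3849 with library weights, 4281 without the replicate 1 libraries and 1632 to 3131 without 1 library (1632 without DMSO replicate 2). For RAD001 against GDC0941 1798 became 3048 with library weights, 3413 without the replicate 1 libraries, 701 with only the 2 groups compared and 960 to 1975 without 1 library (960 without RAD001 replicate 2). The split with PD325901, 1893 higher and 2909 lower, was 2675 and 2455 after quantile normalization.

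Ftl1 for PD325901 against RAD001 reversed, to -0.52 after quantile normalization (adjusted p = 0.0438, limma), against 0.02; against DMSO, Ftl1 with PD325901 and with GDC0941 and Hmox1 with GDC0941 also changed sign there, at -0.18, -0.29 and -0.28, without passing. Quantile normalization sets each value from its rank, and Ftl1 ranked 1 to 3 and Hmox1 14 to 154 over the libraries. Ftl1 ranked 1 in all RAD001 libraries, where Fth1 is listed at 0. Its rank was 1, 3 and 3 with PD325901, 3, 2 and 3 with GDC0941, and 2 in all DMSO libraries. The replicate block also called Tfrc for PD325901 against GDC0941 (0.52, adjusted p = 0.0120, limma), where the lowest same-number correlation was -0.139. It changed no call of a member beyond those given above. The cause of any of these changes was not tested. Without counts, depth cannot be set against any value.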
